A study of Homo sapiens with 3 samples.

Results

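The genes described here are 9 transcriptional targets of the tumour suppressor p53, which were CDKN1A, MDM2, BAX, BBC3, TP53I3, GDF15, ZMAT3, RRM2B and TP53INP1. They were taken by gene symbol from 24254 symbols in the deposited table. The mRNA was from LX-2, an established human hepatic stellate cell line, given vehicle or recombinant human FGF19 (rhFGF19) at 50 or 100 ng/mL, and 1 library was sequenced per condition. Every comparison was therefore between single libraries, with no replicate check and no test. The sample titles and agent labels give the doses used here, whereas the free text of the sample records exchanges the doses of the treated libraries. That free text also gives 72 h and 73 h of treatment, and the series record and the methods give 24 h. LX-2 comes from stellate cells transformed with the large T antigen of the virus SV40, a protein that binds p53.

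p53 is a transcription factor that is held at a low level by MDM2, a ubiquitin ligase that marks it for degradation. After DNA damage or other stress p53 is stabilised and switches on genes that stop the cell cycle, repair DNA or start apoptosis, and MDM2 is itself such a gene, which closes a feedback loop. In activated stellate cells, p53 and its target p21 are known for their part in senescence. The mRNA level of p53 targets is a common readout of p53 activity, although several of them have other inducers too.

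Promoter windows from RefSeq (GRCh38.p14) were found for 7 of the 9 genes, all but RRM2B and TP53INP1, in 11 windows of 300 bases that run from 250 bases before to 50 bases after an annotated start. The p53 half-site consensus, searched on both strands without a mismatch, was in none of the 11 windows and in 6.63% of all 35116 windows. Its commonest core, CATG, was in the windows of ZMAT3, GDF15 and the downstream start of MDM2, and in 54.9% of all windows. A full site of 2 adjoining half-sites with at most 2 mismatches, a search chosen after the half-site result, was found for MDM2 only, at its downstream start, and in 0.649% of all windows. These matches describe letters within the windows and do not show binding. Sequence outside the windows was not searched, so a site there would not be seen. The upstream 250 bases are given on the plus strand, 5′ to 3′, for CDKN1A, the most abundant of the 9 mRNAs, and for both start regions of MDM2, since the downstream start carries the full site (capitals, 94 to 75 bases before that start).
CDKN1A, chr6:36678464-36678713: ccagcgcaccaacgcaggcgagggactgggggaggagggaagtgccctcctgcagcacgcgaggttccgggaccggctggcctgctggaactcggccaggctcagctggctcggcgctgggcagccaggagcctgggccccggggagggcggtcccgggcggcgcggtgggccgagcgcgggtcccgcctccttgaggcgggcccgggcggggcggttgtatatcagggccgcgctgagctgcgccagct
MDM2 upstream start, chr12:68807922-68808171: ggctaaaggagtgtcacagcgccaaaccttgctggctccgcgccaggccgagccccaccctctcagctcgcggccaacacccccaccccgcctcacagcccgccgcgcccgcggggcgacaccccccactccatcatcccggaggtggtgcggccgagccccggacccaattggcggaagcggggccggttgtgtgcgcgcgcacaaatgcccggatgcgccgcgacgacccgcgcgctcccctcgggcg
MDM2 downstream start, chr12:68808767-68809016: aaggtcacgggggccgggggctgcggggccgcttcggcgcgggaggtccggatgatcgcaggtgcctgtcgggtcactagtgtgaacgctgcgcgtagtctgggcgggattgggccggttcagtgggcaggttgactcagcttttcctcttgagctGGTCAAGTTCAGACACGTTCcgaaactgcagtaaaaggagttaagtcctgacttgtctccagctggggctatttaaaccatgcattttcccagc
The printed bases of CDKN1A were 76.4% G or C, those of the upstream MDM2 start 74.4% and those of the downstream start 59.2%. The deposited table holds 1 value per gene, so transcripts from the 2 MDM2 starts are not told apart in what follows.

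Levels were given as FPKM, fragment counts scaled to transcript length and to the mapped fragments of a library, to 2 decimals. The 3 columns summed to between 276690 and 302243, and no read depth is given by them. Fold changes are log2 ratios of FPKM plus 0.1, a scale that makes changes of low genes look smaller. They were taken for the 12422 symbols that averaged 0.5 FPKM or more, and a gene was counted as higher or lower past 2-fold. Over these symbols the median log2 fold change was 0.62 at both doses, so about equal FPKM in 2 libraries means a place below the middle of all genes. Transcripts richer in G and C had lower fold changes, and across symbols the Spearman correlation of fold change with GC content was -0.77 with 50 ng/mL and -0.78 with 100 ng/mL. GC content here is the median over a gene's listed transcripts. Fold changes of the tested targets are therefore set beside the median of the 200 symbols nearest in GC content, in the text or in a figure. Most genes of the further lists are given without that median, so their fold changes still hold the GC trend. Whether the trend belongs to the vehicle library or to the treatment cannot be told apart with 1 vehicle library. Of 10 stellate markers 6 passed the filter on low values. Of these, PDGFRB, COL1A1, COL3A1 and VIM were above vehicle at both doses, and TIMP1 (-0.75 and -0.68 on the log2 scale) and ACTA2 (-0.09 and -0.14) below it. The others were near the floor, with LRAT at 0 in all 3 libraries, DES at 0.08 FPKM or less, PDGFRA at 0.09 or less and COL1A2 at 0.14 or less. Of 5 epithelial markers, KRT8 (121, 81.9 and 78.5 FPKM) and KRT18 (382, 226 and 224 FPKM) passed the filter and were lower with rhFGF19 like CDKN1A, CDH1 and KRT19 were at 0.11 FPKM or less, and the listed markers summed to 503 FPKM in vehicle and to 308 and 302 with rhFGF19. Their part in the results was not tested.

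CDKN1A, BAX, TP53I3 and BBC3 had less mRNA than vehicle at both doses, by under 2-fold, although BBC3 changed sign with 50 ng/mL once GC content was allowed for. MDM2 and RRM2B were between 2.82 and 3.55 times vehicle on the scale used, and TP53INP1, which also changed sign when GC content was allowed for, was 2.46 and 1.85 times vehicle. Among the 8 tested targets, 3 exceeded vehicle by over 2-fold with 50 ng/mL, against 39.5% of all tested symbols. RRM2B and TP53INP1, at 0.43 and 0.31 FPKM in vehicle, passed the filter of 0.5 FPKM on the mean only through their treated libraries. The filter can therefore add to the counts of higher genes, among the targets and among all symbols. At 100 ng/mL 2 of the 8 were higher, against 38.6% of all, and these 2 were higher at both doses, against 36.3%. No target was more than 2-fold lower at either dose, against 1.75% and 1.47% of all. The median log2 fold change of the 8 was -0.39 with 50 ng/mL and -0.25 with 100 ng/mL, both below the median of all tested symbols.

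**Figure D1:**
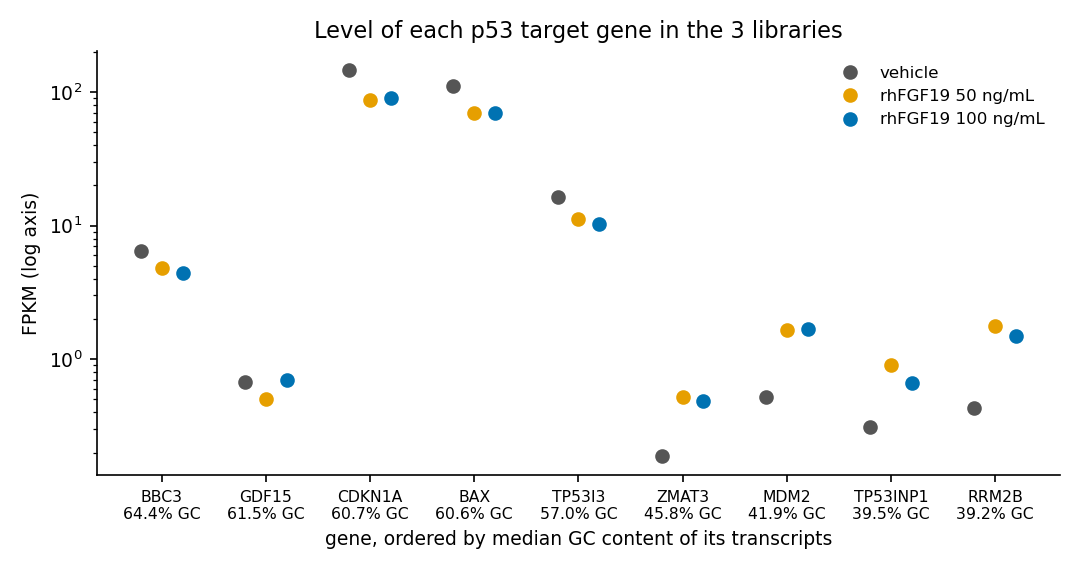
FPKM (log axis) of each p53 target gene in the vehicle, 50 and 100 ng/mL rhFGF19 libraries, 1 point per library, ordered from high to low median transcript GC content. BBC3, CDKN1A, BAX and TP53I3, on the left, lie lower in both rhFGF19 libraries than in vehicle, and ZMAT3, MDM2, TP53INP1 and RRM2B, on the right, lie higher.

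MDM2 (ENSG00000135679, chromosome 12 from 68808177 to 68850686, with GRCh38 positions here and for the genes that follow), the ligase that degrades p53 and one of its direct targets, was listed at 0.52 FPKM in vehicle, 1.65 with 50 ng/mL and 1.68 with 100 ng/mL. The treated libraries were alike and both stood above vehicle, by log2 fold changes of 1.5 and 1.52. The median of the 200 symbols nearest to it in GC content (41.9%) was 1.45 and 1.48, so MDM2 sat in the middle of genes of its composition, with 54.5% of them below it with 50 ng/mL and 53% with 100 ng/mL. CPM, on the opposite strand, overlaps 8490 bases of MDM2 and was listed at 0.10, 0.49 and 0.54 FPKM.

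CDKN1A (ENSG00000124762, chromosome 6 from 36676460 to 36687337) encodes p21, the inhibitor of cyclin-dependent kinases through which p53 halts the cell cycle. It had 146 FPKM in vehicle, 87.3 with 50 ng/mL and 89.8 with 100 ng/mL. It was the most abundant of the 9 targets per length in every library and ranked 332 among all symbols in vehicle, 507 with 50 ng/mL and 486 with 100 ng/mL. The log2 fold changes were -0.74 and -0.70, a level 40.0% and 38.4% below vehicle. Symbols of like GC content (60.7%) had medians of -0.41 and -0.36, and 19.0% and 18.5% of them lay below CDKN1A. The antisense DINOL, which overlaps 951 bases of CDKN1A, was listed at 0.04 FPKM or less.

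The apoptosis genes BAX and BBC3 were lower as well. BAX (ENSG00000087088, chromosome 19 from 48954815 to 48961798), which forms pores in the outer mitochondrial membrane, had 109.7 FPKM in vehicle, 69.1 with 50 ng/mL and 69.9 with 100 ng/mL. Its log2 fold changes were -0.67 and -0.65, where symbols of like GC content had a median of -0.37 at both doses. BBC3 (ENSG00000105327, chromosome 19 from 47220822 to 47232766), which encodes the BH3-only protein PUMA that frees BAX from its BCL2-type inhibitors, had 6.42, 4.82 and 4.4 FPKM in the same order. BBC3 differed from vehicle by -0.41 and -0.53 on the log2 scale, close to the -0.59 and -0.55 of symbols with its high GC content (64.4%). Neither gene passed 2-fold, and the treated libraries lay on the same side of vehicle for both.

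TP53I3 and RRM2B, p53 targets with enzyme products, went opposite ways. TP53I3 (ENSG00000115129, chromosome 2 from 24077433 to 24085861), a quinone oxidoreductase also called PIG3, had 16.2 FPKM in vehicle, 11.1 with 50 ng/mL and 10.3 with 100 ng/mL. On the log2 scale it stood at -0.54 and -0.65, below the -0.20 and -0.16 of symbols of like GC content, of which 21% and 9.0% lay lower. FAM228B lies on the opposite strand over 8429 bases of it and was listed at 0.20 FPKM or less. RRM2B (ENSG00000048392, chromosome 8 from 102204502 to 102238961), the p53-induced small subunit of ribonucleotide reductase that supplies DNA precursors for repair, had 0.43, 1.78 and 1.49 FPKM. It was higher by 1.83 and 1.58 on the log2 scale, the highest values of the 8 tested targets. Symbols of like GC content (39.2%) had medians of 1.53 and 1.51, and 83.5% of them lay below RRM2B with 50 ng/mL and 59.0% with 100 ng/mL.

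The remaining targets were at low levels. TP53INP1 (ENSG00000164938, chromosome 8 from 94925972 to 94949378), a stress protein that acts on p53 and in autophagy, had 0.31 FPKM in vehicle, 0.91 with 50 ng/mL and 0.66 with 100 ng/mL. Its log2 fold changes were 1.3 and 0.89, below the 1.54 and 1.52 of symbols of like GC content (39.5%). NDUFAF6, on the opposite strand, covers the whole of TP53INP1 at 0.34, 0.67 and 0.64 FPKM, and since no source used here says whether strand was counted, reads of these 2 genes could be shared. GDF15 (ENSG00000130513, chromosome 19 from 18374731 to 18389176), a secreted cytokine of the TGF-beta superfamily that is also induced by ATF4, was listed at 0.68, 0.50 and 0.70 FPKM. The 2 treated libraries stood on opposite sides of vehicle for GDF15, at -0.38 and 0.04 on the log2 scale, so no direction was seen. ZMAT3 (ENSG00000172667, chromosome 3 from 178960121 to 179071831), a zinc finger protein that binds RNA, had 0.19, 0.52 and 0.49 FPKM and did not pass the filter. Without the filter its log2 fold changes were 1.10 and 1.02.

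**Figure D2:**
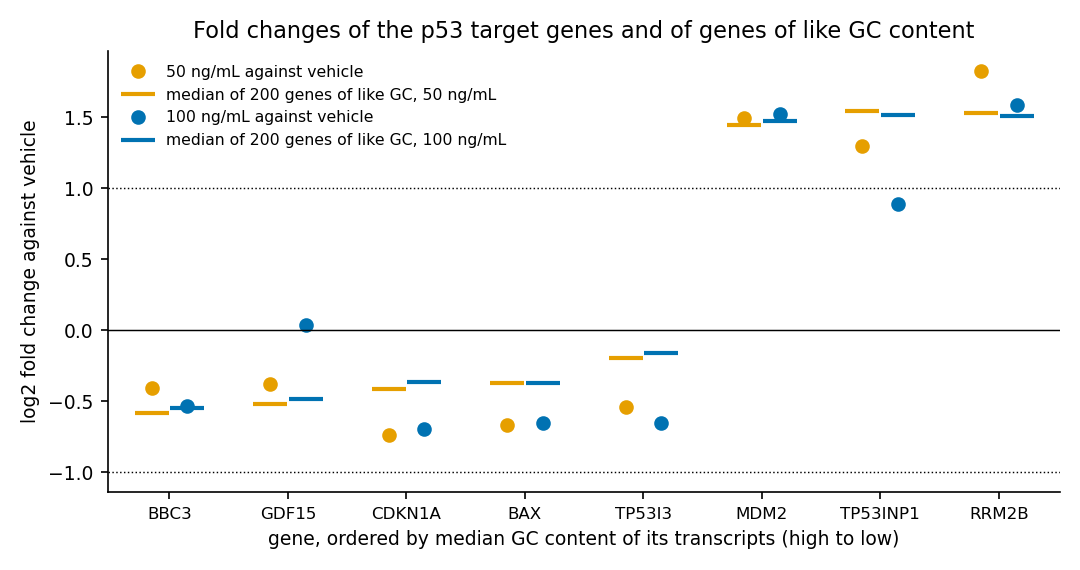
Log2 fold change against vehicle of the 8 tested p53 targets at 50 and 100 ng/mL (points, 1 library each) and the median of the 200 symbols nearest in transcript GC content (bars), ordered from high to low GC content; dotted lines mark 2-fold. CDKN1A, BAX and TP53I3 lie 0.28 to 0.50 below their bars, and MDM2 lies on its bars.

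The share of symbols past 2-fold depended on GC content, so the counts were also read within each side of 50% GC, a split chosen after the values were seen. Of tested symbols under 50% GC, 74.3% were higher with 50 ng/mL and 73.7% with 100 ng/mL, 0.246% and 0.264% were lower past 2-fold, and 5.32% and 5.02% lay below vehicle by any amount. The 3 tested targets on that side, MDM2, RRM2B and TP53INP1, were all higher with 50 ng/mL, and 2 of them with 100 ng/mL. Of tested symbols with at least 50% GC, 9.92% and 8.86% were higher, 2.99% and 2.48% were lower past 2-fold, and 59.0% and 58.7% lay below vehicle by any amount, against 34.3% and 34.1% of all tested symbols. All 5 targets on this side lay below vehicle with 50 ng/mL and 4 of 5 with 100 ng/mL. Across the 8 targets the Spearman correlation of fold change with GC content was -0.62 with 50 ng/mL and -0.60 with 100 ng/mL, a description of 8 genes that share the same 3 libraries.

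With the trend on GC content removed by local regression, no target was past 2-fold at either dose, where 3.74% of symbols were higher and 5.03% lower with 50 ng/mL, and 3.31% and 4.49% with 100 ng/mL. The values of the targets then ran from -0.43 to 0.34 with 50 ng/mL and from -0.58 to 0.41 with 100 ng/mL. CDKN1A had -0.38 and -0.36, BAX -0.31 at both doses and TP53I3 -0.43 and -0.55. MDM2 had 0.07 and 0.11 and BBC3 0.09 and -0.06. TP53INP1 stood at -0.18 and -0.58, the reverse of its direction in the deposited values.

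**Figure D3:**
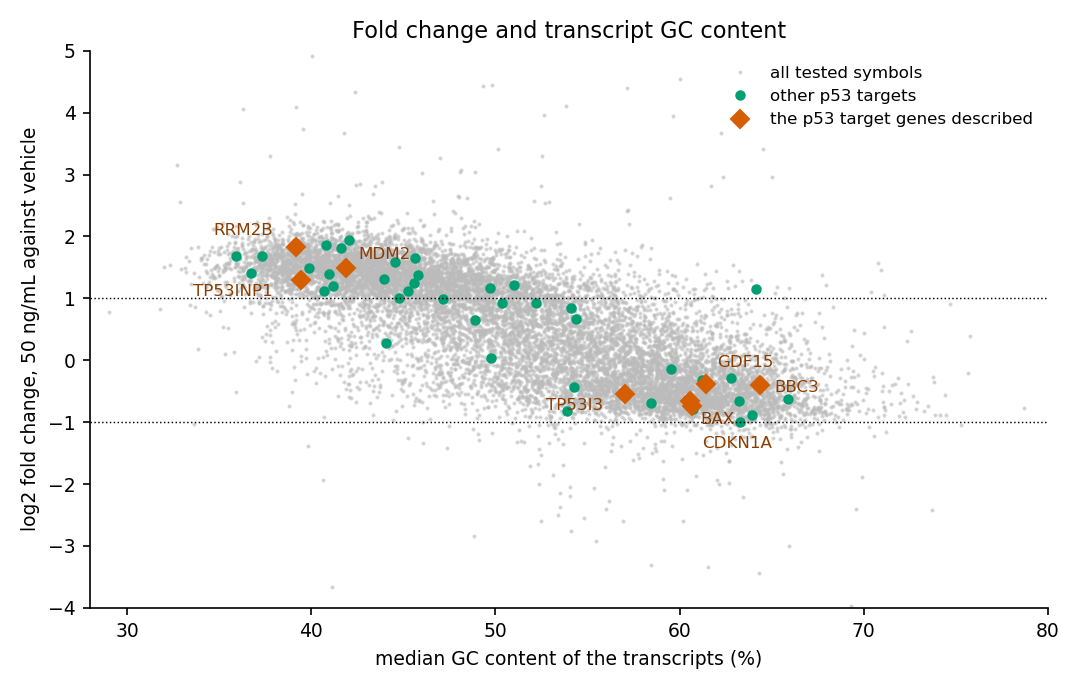
Log2 fold change with 50 ng/mL against vehicle (vertical) and median transcript GC content in percent (horizontal) for all tested symbols (grey), other p53 targets (green) and the p53 targets described (orange diamonds); dotted lines mark 2-fold, and 19 symbols lie outside the axes. The orange diamonds lie within the grey band, high at low GC content and low at high GC content.

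The 100 and 50 ng/mL libraries gave the only measure of how far 2 libraries of treated cells lie apart, although they also differ in dose. CDKN1A, MDM2 and BAX differed between them by 0.04, 0.02 and 0.02 on the log2 scale. TP53I3 and BBC3 were lower with 100 ng/mL by -0.11 and -0.13. RRM2B had -0.24, TP53INP1 -0.41 and GDF15 0.42, so the larger differences were among targets at low levels. Over all tested symbols the median absolute difference was 0.20 for means of 0.5 to 1 FPKM and 0.04 for means of at least 100 FPKM, and the 95th percentile was 1.15 and 0.12. The dose differences of TP53INP1 and GDF15 were within that 95th percentile for their level. The 0.74 and 0.70 by which CDKN1A was below vehicle exceeded the 0.12 for its level, but that limit does not cover the vehicle library, which has no partner.

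Genes that control p53 formed a list of 22, of which 19 passed the filter. MDM4, the partner of MDM2 that blocks the activation domain of p53, was under the filter at 0.14, 0.69 and 0.56 FPKM, as were ATR and TP63. Of the 19 tested genes, 11 were higher at each dose and 0 lower, with medians of 1.21 and 1.27. Of all tested symbols, 39.5% were higher with 50 ng/mL and 38.6% with 100 ng/mL, and 1.75% and 1.47% lower. The 19 genes had a median GC content of 48.0%. Of the 11 under 50% GC, 9 were higher at each dose, against 74.3% and 73.7% of symbols on that side. Of the 8 with at least 50% GC, 2 were higher at each dose, against 9.92% and 8.86%. By the average of both doses, which orders the genes named from this list and from those that follow, the highest were the damage-site protein TP53BP1 at 1.65 and 1.73 and the checkpoint kinase CHEK1 at 1.62 and 1.5. The lowest were the acetyltransferase KAT5 at -0.48 and -0.47 and CDKN2A, whose ARF product inhibits MDM2, at -0.44 and -0.42. After removal of the GC trend the list median was 0.02 and 0.12, and none of its genes passed 2-fold at either dose.

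Another 45 known p53 targets were described as 4 lists by function, of which 44 were in the table and 39 passed the filter. Of these 39, 20 were higher and 0 lower with 50 ng/mL, and 23 higher and 1 lower with 100 ng/mL. Of all tested symbols, 39.5% and 38.6% were higher and 1.75% and 1.47% lower. The 39 had medians of 1.01 and 1.07, above those of the 8 tested targets described, and a median GC content of 48.9% against 58.8%. Of the 22 under 50% GC, 18 and 19 were higher, against 74.3% and 73.7% of symbols on that side. Of the 17 on the other side, 2 and 4 were higher, against 9.92% and 8.86% of symbols there. At each dose 11 of the 17 lay below vehicle, against 59.0% and 58.7%. Without the GC trend 1 of the 39 was higher at each dose, and 2 were lower with 50 ng/mL and 1 with 100 ng/mL, with medians of 0.01 and 0.04. Of all symbols, 3.74% and 3.31% were then higher and 5.03% and 4.49% lower. The lower ones, named after their values were seen, were FBXO22 at -1.05 and -1.13 and SERTAD1 at -1.06, which had -0.95 with 100 ng/mL.

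Among targets in cell cycle arrest and feedback, 6 of 11 tested genes were higher with 50 ng/mL and 7 with 100 ng/mL, against 39.5% and 38.6% of all tested symbols. The polo-like kinase gene PLK2 had 10.9, 38.5 and 38.7 FPKM and KITLG, the ligand of KIT, 0.44, 1.64 and 1.69 FPKM, log2 fold changes of 1.82 at both doses and of 1.69 and 1.73. KITLG passed the filter on the mean only through its treated libraries. The lowest were SERTAD1 at -0.82 and -0.71 and PLK3 at -0.70 and -0.66, and SESN1 was under the filter. GADD45A, a growth arrest and DNA damage gene picked out after its values were seen, had 26.1 FPKM in vehicle, 58.2 with 50 ng/mL and 53.5 with 100 ng/mL. Its transcripts have 64.2% GC, and its log2 fold changes of 1.16 and 1.03 lay above 98.5% and 98.0% of the symbols nearest in GC content, whose medians were -0.56 and -0.54. It was the 1 other target that stayed more than 2-fold higher without the GC trend, at 1.64 and 1.51.

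Among targets in apoptosis, 6 of 10 tested genes were higher with 50 ng/mL and 7 with 100 ng/mL, with 0 lower, and TP53AIP1 was not analysed here. Of all tested symbols, the background for every list of this paragraph, 39.5% and 38.6% were higher and 1.75% and 1.47% lower. APAF1, the scaffold of the apoptosome, was highest at 1.95 and 1.69, followed on that average by the death receptor gene FAS at 1.58 and 1.18. Both, at 0.45 and 0.31 FPKM in vehicle, passed the filter only through their treated libraries. PIDD1 at -0.63 and -0.60 and the nuclease gene AEN at -0.32 and -0.33 were lowest. Of 5 DNA repair targets 3 were higher with 50 ng/mL and 4 with 100 ng/mL, with 0 lower. The helicase subunit ASCC3 had 1.49 and 1.56, the ribosomal protein paralogue RPS27L 1.12 and 1.13, the DNA polymerase gene POLH 0.99 and 1.13, and the damage sensor DDB2 -0.42 and -0.32. ASCC3, at 0.48 FPKM in vehicle, also passed the filter only through its treated libraries. Of 13 tested targets in metabolism and other functions, 5 were higher at each dose, and FDXR, a mitochondrial ferredoxin reductase, was lower with 100 ng/mL, just past 2-fold. BLOC1S2 at 1.86 and 2.0 and the lysosomal protein gene DRAM1 at 1.65 and 1.43 were highest on average, and FDXR, from 18.6 FPKM in vehicle to 10.0 and 9.22, and the growth factor gene PGF, from 5.07 FPKM to 2.49 and 3.01, were lowest on average. Another 4 genes of this list did not pass the filter.

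Relatives of the targets gave a further set of values. Of 12 tested genes of the BCL2 family, to whose members BAX and PUMA bind, 3 were higher and 1 lower at each dose, with medians of 0.31 and 0.38. Of all tested symbols, 39.5% and 38.6% were higher and 1.75% and 1.47% lower. The higher genes of the family were the survival genes MCL1 and BCL2A1 and the p53 target PMAIP1, with log2 fold changes between 1.14 and 1.62. BAD, a BH3-only gene, had 147.9, 72.2 and 73.5 FPKM, -1.03 and -1.01 on the log2 scale, and BOK -0.86 and -0.71. BCL2L1, which encodes the inhibitor BCL-xL, had 120.4, 98.7 and 102.5 FPKM, and BCL2 and HRK did not pass the filter. Among 8 tested CDK inhibitors and related genes, 3 were higher at each dose and 0 lower, beside the same shares of all tested symbols, with medians of 0.58 and 0.62. CDKN1B, which encodes p27, was higher at 1.23 and 1.37, whereas CDKN2D at -0.52 and -0.43 and CDKN2A were lowest, and CDKN1C was under the filter. RRM1, the large subunit that pairs with the RRM2B product, had 3.32, 14.1 and 14.6 FPKM, log2 fold changes of 2.05 and 2.10, and RRM2, the S-phase small subunit, 1.06 and 1.05.

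Genes that p21 represses through the DREAM complex would lie downstream of CDKN1A. Of 14 such cell cycle genes, all tested, 6 were higher at each dose and 0 lower, with medians of 0.11 and 0.09. Of all tested symbols, 39.5% and 38.6% were higher and 1.75% and 1.47% lower, and of those under 50% GC 74.3% and 73.7% were higher. All 6 cell cycle genes with transcripts under 50% GC were the higher ones, led by CDC25C at 1.81 and 1.72 and the checkpoint kinase gene BUB1 at 1.81 and 1.80. None of the 8 on the other side was past 2-fold, and E2F1 at -0.64 at both doses and MYBL2 at -0.58 and -0.50 were lowest. After the GC trend was removed, none of the 14 was past 2-fold and the medians were -0.12 at both doses.

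GDF15 also belongs to the stress genes driven by ATF4, of which all 8 listed were tested. Of these, 2 were higher with 50 ng/mL and 1 with 100 ng/mL, with 0 lower and medians of 0.18 and 0.16. Of all tested symbols, 39.5% and 38.6% were higher and 1.75% and 1.47% lower. ASNS, asparagine synthetase, was at 1.97 and 1.82 and ATF3 at 1.01 and 0.75, while CHAC1 had -0.54 and -0.67 and TRIB3 -0.59 and -0.53. ATF4 itself had 100.1, 112.8 and 118.1 FPKM.

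The pattern of CDKN1A over the 3 libraries was shared widely. By distance over the 3 log2 levels among symbols averaging 1 FPKM or more, the nearest to CDKN1A were H1-10 (distance 0.05), RUVBL2 (0.08) and ILK (0.08), and the nearest to MDM2 were CRBN (0.03), RAPGEF2 (0.06) and EIF3J-DT (0.06). Within 0.1 of both fold changes of CDKN1A lay 545 other symbols, and within 0.1 of both of MDM2 lay 622. For GDF15 and TP53INP1, whose treated libraries differed most, 32 and 42 symbols did.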

How the data were processed

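The mRNA of 3 LX-2 cultures was sequenced as poly(A) RNA on an Illumina HiSeq instrument. Alignment by the authors used HISAT2, and their deposited table gives FPKM values in 26108 rows, and the submitters' processing notes list HISAT2 2.0, StringTie 1.3.0 and Bowtie 0.12.2 without their roles. Those notes name human and mouse builds that differ from the coordinates in the table, which overlapped GRCh38 positions (GENCODE 29) for 99.8% of 25531 matched identifiers. Low FPKM values showed no steps of whole reads, so depth is unknown and no interval or test was computed.

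Rows of 1 symbol were summed. Transcript length and GC content were medians over the listed transcripts in GENCODE 29, found for 99.6% of tested symbols. Trends were removed by lowess (span 0.3). The named genes were the 9 targets, the 2 highest and 2 lowest of each further list, MDM4, up to 3 list genes under the filter, and the 3 symbols most like CDKN1A and MDM2. MCL1, BCL2L1, RRM2, ATF4 and the genes noted as such were picked after their values were seen. Values of 2 genes are not reported here. The members and lists were chosen with earlier results of these data known. Another 15 alternatives set in advance are given in the closing section, and 3 added later stand beside the results they bear on. Python 3.11.15, NumPy 2.4.6, pandas 2.3.3, SciPy 1.17.1, statsmodels 0.14.6 and matplotlib 3.10.9 were used, and the procedure was tested on simulated data.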

Additional observations from a re-analysis of the deposited data

How the results depend on the processing

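The counts of p53 targets past the threshold changed with most choices. Apart from thresholds and filters, which act by construction, the cause was not tested. In the deposited values 3 targets were higher at 50 ng/mL, 2 at 100 ng/mL and 2 at both, with 0 lower. No target was higher at 50 ng/mL, at 100 ng/mL or at both with a pseudocount of 1 (all symbols 17.6% and 16.7%). None was higher with the GC trend removed (all symbols 3.74% and 3.31%) or with the length and GC trends removed (3.89% and 3.53%). None was higher with the median of GC neighbours subtracted (all symbols 4.07% and 3.76%) or past a log2 threshold of 2 (1.79% and 1.5%). The count was 3 at each dose and at both with a pseudocount of 0.01 (all symbols 41.4% and 40.5% at the doses) and with TPM (all symbols 44.5% and 43.1%). It was 4, 3 and 3 of 9 without the filter (all symbols 27.6% and 27.3% at the doses), where the median at 100 ng/mL was 0.04. The mean of both rhFGF19 libraries gives 1 fold change per gene and no comparison of doses, and 3 targets were higher by it (all symbols 39.3%). Keeping the highest row per symbol left 3, 2 and 2 higher (all symbols 39.5% and 38.6% at the doses). Setting the median ratio to 0 also left 3, 2 and 2, where all symbols had 30.4% and 29.7%. With quantile normalization 1 was higher at 50 ng/mL (all symbols 9.19%), 0 at 100 ng/mL and 0 at both, and 1 was lower at each dose (all symbols 9.85% and 9.02%). With the length trend removed 2 were lower at 50 ng/mL, 4 at 100 ng/mL and 2 at both (all symbols 16.2% and 15.2% at the doses), with medians of -0.80 and -0.66. That setting left 2 higher at each dose and at both (all symbols 13.9% and 13.5% at the doses). A threshold of 1.5-fold, which adds genes by construction, gave 2 lower at 50 ng/mL, 3 at 100 ng/mL and 2 at both (all symbols 13.5% and 12.5% at the doses). It gave 3 higher at each dose and at both (all symbols 51.0% and 50.8% at the doses). With a mean of at least 1 FPKM, which leaves out GDF15 and TP53INP1, the median at 100 ng/mL was -0.59.

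CDKN1A, BAX and TP53I3 were below vehicle and MDM2 and RRM2B above it in all 13 alternatives that give a fold change. CDKN1A ran from -1.13 to -0.26 at 50 ng/mL, BAX from -1.15 to -0.29, TP53I3 from -0.90 to -0.28, MDM2 from 0.05 to 1.74 and RRM2B from 0.29 to 2.10. TP53INP1 at 50 ng/mL changed direction to -0.18 with the GC trend removed, -0.59 with both trends removed and -0.24 with the GC neighbours subtracted. BBC3 changed sign at 50 ng/mL under the same 3 alternatives. At 100 ng/mL BBC3 changed sign under 1, to 0.01 with the GC neighbours subtracted. TP53INP1 at 100 ng/mL changed direction under 4, those 3 and the length trend removed, and reached -0.98 with both trends removed. GDF15 changed sign under 3 alternatives at 50 ng/mL and under 4 at 100 ng/mL. The median over all tested symbols at 50 ng/mL was 0.62 on the scale used above, 0.40 with the median ratio set to 0, 0.77 with TPM, 0.10 with quantile normalization and 0.01 with the GC trend removed. No paired analysis was possible because each condition had 1 library. Depth is unknown, and values under 1 FPKM are the least certain.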

Other observations

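The deposited annotation puts 67 genes in the KEGG p53 signaling pathway, a list used after the data were seen. Of these, 37 were neither among the 9 targets nor in the lists of other targets and of p53 control, and 33 of the 37 passed the filter. With 50 ng/mL 16 of the 33 were higher and 0 lower, and with 100 ng/mL 15 and 0, with medians of 0.91 and 0.88. These are 48.5% and 45.5% higher, against 39.5% and 38.6% of all tested symbols, of which 1.75% and 1.47% were lower. Without the GC trend 3 of the 33 were higher and 1 lower at each dose. Of all symbols, 3.74% were then higher and 5.03% lower with 50 ng/mL, and 3.31% and 4.49% with 100 ng/mL. The 3 were IGFBP3, GTSE1 and CCND1, and the 1 was BID. IGFBP3, a p53 target that binds insulin-like growth factors, had 0.71 FPKM in vehicle, 2.74 with 50 ng/mL and 2.46 with 100 ng/mL. Its log2 fold changes were 1.81 and 1.66, where symbols of like GC content (55.7%) had a median of -0.09 with 50 ng/mL. GTSE1, a microtubule-associated protein that restrains p53, had 5.08, 10.7 and 11.9 FPKM, at 1.06 and 1.21. The cyclin gene CCND1 had 55.2, 103.9 and 106.4 FPKM, at 0.91 and 0.94, against a median of -0.51 for like symbols with 50 ng/mL. BID, which links death receptors to BAX, had 12.7, 9.72 and 9.59 FPKM, at -0.38 and -0.40, where like symbols had a median of 0.91 with 50 ng/mL. THBS1, a secreted matrix protein gene of the pathway, had 13.5, 34.2 and 31.9 FPKM, with log2 fold changes of 1.33 and 1.23. These genes were picked after their values were seen.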
